A study of Mus musculus with 35 samples.

Results

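The genes described here are 7 matrix metalloproteinases, *Mmp2*, *Mmp3*, *Mmp7*, *Mmp9*, *Mmp11*, *Mmp13* and *Mmp14*, and 3 tissue inhibitors of metalloproteinases, *Timp1*, *Timp2* and *Timp3*. They are 10 of the 53465 genes in the count table, were found by gene name, and each name had 1 gene identifier. The 10 were chosen by name from these families with earlier results of the same libraries known, which can have favored genes that vary, so their levels and differences are a description and no independent evidence. Each was read in all 35 libraries, by organ, day and Smad4 label, and all 10 passed the filter on low counts in every comparison.

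Matrix metalloproteinases are zinc-dependent proteases that are made as inactive proenzymes and cleave collagens, proteoglycans, basement membrane proteins and many cell-surface proteins. TIMPs are secreted proteins that bind the active site of these proteases and block it. TIMP2 also bridges MMP14 and pro-MMP2 at the cell surface, where MMP14 activates MMP2. In carcinomas, many of these genes are transcribed mainly by fibroblasts, endothelial cells and leukocytes, whereas MMP7 is a product of epithelial cells.

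RNA was measured by polyA-selected RNA-seq in mKate2+ cells sorted from tumors of KC-shSmad4 cell lines, which come from mouse pancreatic ductal adenocarcinomas (PDAC). The donor tumors carried Ptf1a-Cre, which acts in pancreatic epithelium, a Cre-dependent rtTA3 and mKate2 allele in Rosa26, and a doxycycline (Dox)-inducible, GFP-linked shRNA against *Smad4* (1 of 2 independent shRNAs), on a mixed C57BL/6J and 129 background. Most such lines had also lost *Cdkn2a/b*, and which line gave which library is not given in the labels. All hosts were female athymic Foxn1nu mice of 6 to 8 weeks, which lack mature T cells, and all were fed Dox chow while the tumors formed.

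The cells were injected into the pancreas (primary tumors), into the spleen (liver metastases) or into the tail vein (lung metastases). By their labels, libraries marked Smad4 off came from hosts kept on Dox. Those labelled Smad4 on came from hosts taken off Dox at 4 weeks (pancreas), 5 weeks (liver) or 6 weeks (lungs) after injection. Cells were sorted 7 or 14 days later. Pancreas groups held 3 libraries labelled off and 2 labelled on (day 7) or 2 and 3 (day 14). Liver groups held 2 and 3 on the earlier day and 3 of each on the later, and lung groups 4 and 2, then 4 of each. The labels number the mice within each group, and p-values measure the spread between these libraries.

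Library totals were 11885461 to 43571007 counts, so that 3 counts, the smallest number read here as a signal, corresponded to 0.0689 to 0.252 counts per 1000000 counts of the library (CPM). *Smad4* mRNA ran against the labels, reaching 77.9 to 132 CPM where the label was Smad4 off (18 libraries) and 14.4 to 23.2 CPM where it was Smad4 on (17 libraries). Libraries are therefore named by their labels, and every log2 fold change between labels is labelled on against labelled off. Whether labels or columns were exchanged was not tested, and an exchange would reverse the sign of each of these values. SMAD4 protein was not analysed here.

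A single liver library stood apart, that of mouse 2 labelled Smad4 off on day 7. This library, which was the only one labelled paired-end, held 15392 CPM over 10 fibroblast markers (*Dcn*, *Lum*, *Pdgfra* and others) against 258 CPM in the other library of its group. It also held 208 CPM over 7 acinar enzyme genes, against 4.89 to 16.8 CPM in the other 10 liver libraries and 492 to 2334 CPM in the pancreas. The day 14 liver library of mouse 2 labelled off held 2395 CPM of fibroblast markers, against 163 and 1238 CPM in the others of its group, but a liver library labelled on (day 14, mouse 3) held 2014 CPM. It did not stand apart in its correlations, which were 0.946 and 0.943 with the others of its group, where those 2 had 0.909 with each other. Results that rest on the paired-end library are given with and without it. These 2 libraries share the number 2 but were sorted on different days, so they came from different hosts. Leaving out both libraries of mouse 2 was chosen after their *Mmp2* and *Timp3* values were seen. Values without both are therefore a description of what these 2 libraries carry.

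The sorted cells also differed by organ in the markers of other cells. Fibroblast markers summed to 6651 to 18535 CPM in the pancreas and to 119 to 2395 CPM in the metastases without the paired-end library. Genes of the carcinoma epithelium (*Krt8*, *Krt19*, *Epcam* and 5 others) ran the opposite way, with 2707 to 8311 CPM in the pancreas, 7044 to 14001 CPM in the lungs and 12640 to 17242 CPM in the liver without that library. Macrophage markers (10 genes) were at 68.8 to 795 CPM in all 35 libraries, and 6 lung epithelial genes were at 72.9 to 527 CPM in the lungs and at most 1.75 CPM elsewhere. Hepatocyte markers (8 genes) reached 134 CPM in the liver, 60.7 CPM in the lungs and 12.4 CPM in the pancreas. Neutrophil (8 genes) and endothelial markers (8 genes) and 5 leukocyte genes summed to at most 258, 116 and 70.4 CPM. In sorted bulk cells, a share of cells of another type and a change of RNA per cell cannot be told apart.

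Of the 10 genes, *Mmp13*, *Mmp3* and *Mmp7* lie in 1 cluster on chromosome 9, from 7272514 to 7699585 (427.1 kb, GRCm38, all on the plus strand). These are the genes for collagenase 3, stromelysin 1 and matrilysin, which cleave fibrillar collagen, a broad range of matrix proteins and, for matrilysin, also epithelial surface proteins. Promoter windows (250 bases before to 50 after a RefSeq start site, GRCm38.p6) were held for 8 of the 10 genes. The AP-1 letters TGANTCA, searched on both strands, stood in windows of these 3 genes and in none of the windows of *Mmp11*, *Mmp14*, *Timp1*, *Timp2* and *Timp3*, and 7.81% of 32851 windows of this length held them. The 3 stretches are shown because the cluster genes share this site, with its 7 bases in capitals; they lie on the plus strand at chr9:7272454-7272510, chr9:7445751-7445807 and chr9:7692002-7692058.
Mmp13: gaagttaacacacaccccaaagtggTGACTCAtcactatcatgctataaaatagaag
Mmp3: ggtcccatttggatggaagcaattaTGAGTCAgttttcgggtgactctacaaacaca
Mmp7: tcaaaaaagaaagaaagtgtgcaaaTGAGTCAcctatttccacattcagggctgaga

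The sites began 35, 46 and 63 bases before the start of *Mmp13*, *Mmp3* and *Mmp7*. The same 3 genes held the TATA letters TATAAA (13.62% of windows), and *Mmp13*, *Mmp14* and a second start of *Mmp7* held the RUNX letters TGTGGT (16.76% of windows). No window of the 8 genes held the SMAD letters GTCTAGAC, as did 0.21% of all windows. These matches are letters in short windows and not measured binding. The 3 cluster genes did not share a pattern of expression across the libraries, as described below.

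Compared per kilobase of exon, the inhibitors were among the most abundant of the 10 transcripts. In the pancreas, *Timp2* led with a median of 324 CPM per kb (267 to 382, n = 10), followed by *Timp1* at 227 (152 to 435), *Timp3* at 174 (94.5 to 361) and *Mmp14* at 145 (104 to 172). *Mmp2* followed at 70.6 CPM per kb (41.2 to 134), and each of these 5 overlapped its neighbors in the order. *Mmp11* (11.6 to 18.6 CPM per kb) lay below all of *Mmp2*, and *Mmp7*, *Mmp9*, *Mmp13* and *Mmp3* had medians between 2.73 and 8.09. The 3 TIMPs together took 70.1% to 80.4% of the summed level per kb of the 10 genes in the pancreas (median 73.3%), 55.8% to 76.8% in the lungs (median 65.9%) and 32.0% to 78.5% in the liver (median 53.5%).

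In the metastases, *Timp2* still had the highest median, at 141 CPM per kb in the liver (81.8 to 348, n = 11) and 212 in the lungs (152 to 339, n = 14). *Mmp7* moved from the seventh place in the pancreas (8.09 CPM per kb) to the second in the liver (65.4) and the fourth in the lungs (68.5). *Timp3*, *Mmp2* and *Mmp9* had medians of 11.3, 4.03 and 0.789 CPM per kb among liver libraries, and of 7.39, 1.45 and 1.00 among lung libraries. The ranges of pancreas and lungs did not overlap for *Mmp2*, *Mmp11*, *Mmp14*, *Timp1* and *Timp3*, and overlapped for the other genes. The share of all genes with separate ranges in these organs was not computed, so this is a description only.

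**Figure D1:**
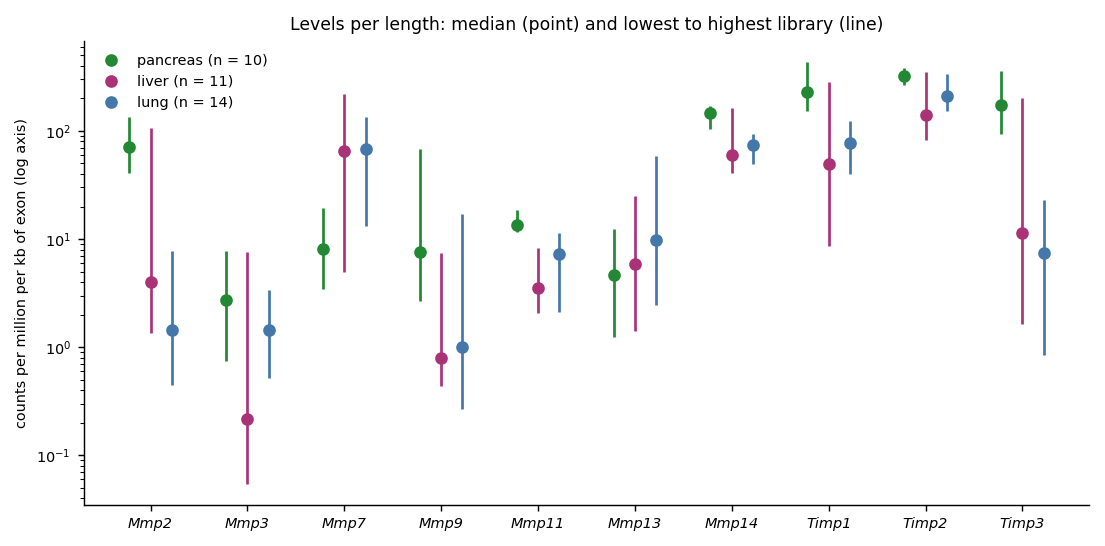
Levels per length of the 10 genes (x axis) in CPM per kilobase of exon (y axis, log scale), with the median as a point and a line from the lowest to the highest library of the pancreas (n = 10), liver (n = 11) and lungs (n = 14). *Timp2* had the highest median in each organ, and *Mmp7* was higher in both metastatic organs than in the pancreas.

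The first question was whether the genes differ between primary tumors and metastases, which grew in separate hosts. Each organ had its own injection route and weeks of growth, so these cannot be told apart from the organ. The question was asked separately in each label with edgeR's quasi-likelihood test, with the day as a covariate. Calls needed more than 2-fold difference together with a p, adjusted by Benjamini-Hochberg over every gene tested, under 0.05. *Mmp7* was called higher than in the pancreas in all 4 comparisons and *Mmp9* lower in all 4, while *Mmp2*, *Timp1* and *Timp3* were called lower in 3, the exception being the liver among libraries labelled off. In the liver, 3 of 10 members were called among libraries labelled off, against 8.68% of all genes, and 9 of 10 among those labelled on, against 22.2%. The count among libraries labelled off was 6 without the paired-end library and 7 without both of mouse 2, with 2696 and 2751 genes called in place of 1442. For the lungs, 6 of 10 were called among libraries labelled off (18.4% of all genes) and 8 of 10 among those labelled on (13.6%).

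The median log2 fold change of the 10 genes against the pancreas was -0.81 (liver) and -0.99 (lungs) among libraries labelled off. Among those labelled on it was -2.46 and -1.33, and medians over all genes lay between -0.01 and 0.04. In each of these 4 comparisons, the called members were *Mmp7*, higher, and others that were all lower. Whether the label changes the difference between liver and pancreas was not tested.

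**Figure D2:**
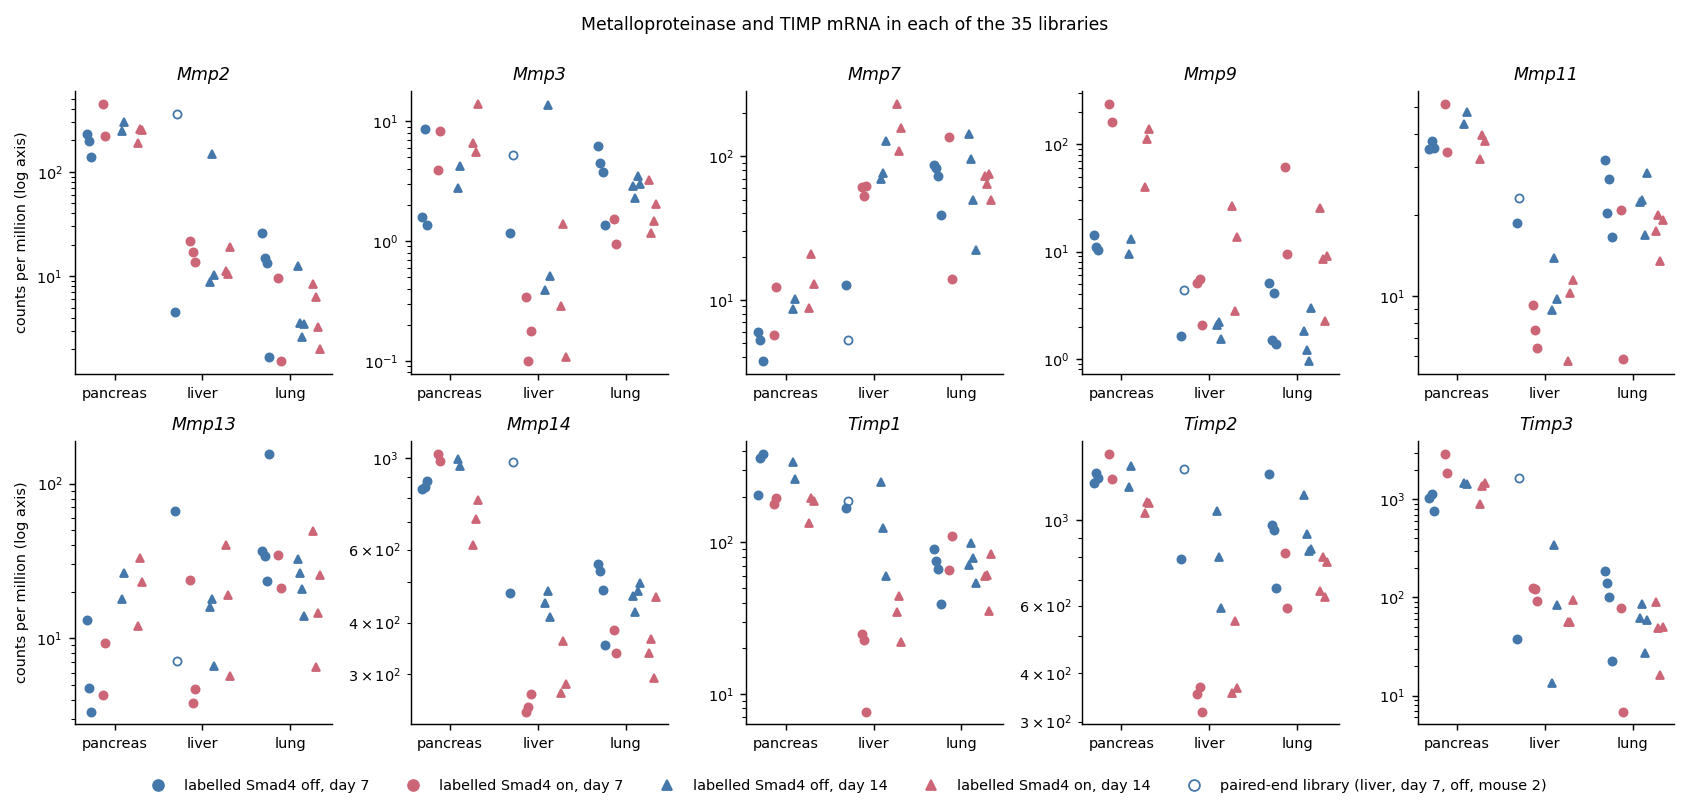
CPM (y axis, log scale) of each of the 10 genes in each of the 35 libraries, by organ (x axis), Smad4 label (color) and day (circle, day 7; triangle, day 14), with the paired-end library as an open circle. *Mmp2* and *Timp3* sit highest in the pancreas libraries and in 2 liver libraries labelled off, whereas *Mmp7* sits lowest in the pancreas.

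*Mmp2* encodes gelatinase A, which degrades denatured collagen and the type IV collagen of basement membranes. Its level was 139 to 451 CPM in the 10 pancreas libraries (median 238), 4.54 to 361 CPM in the 11 liver libraries (median 13.6) and 1.52 to 26.0 CPM in the 14 lung libraries (median 4.89). Only the liver libraries of mouse 2 labelled off, at 361 CPM on day 7 and 149 CPM on day 14, reached the pancreas range, and the other 9 liver libraries were at 21.6 CPM or less.

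*Mmp2* fell in the lungs against the pancreas, with a log2 fold change of -4.91 ± 0.90 (SE) in libraries labelled off (adjusted p = 0.000679) and -5.72 ± 0.42 in those labelled on (adjusted p = 3.03e-07). In the liver it fell among libraries labelled on (-4.13 ± 0.39, adjusted p = 1.79e-06) and was not called among those labelled off (-1.18 ± 0.94, adjusted p = 0.408). Among libraries labelled off, the value was -2.34 ± 0.99 without the paired-end library (adjusted p = 0.0939) and -4.73 ± 0.81 without both of mouse 2 (adjusted p = 0.000522). A difference of 3.73 between liver and lungs (adjusted p = 0.0167) was 2.30 without the paired-end library (adjusted p = 0.154), 3.22 without the day 14 library of mouse 2 (adjusted p = 0.0642) and -0.04 without both (adjusted p = 0.984).

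*Timp3*, the inhibitor that stays bound to the extracellular matrix, followed *Mmp2*. It was at 770 to 2936 CPM in the pancreas (median 1417), 13.5 to 1658 CPM in the liver (median 91.9) and 6.86 to 185 CPM in the lungs (median 60.2). The liver libraries of mouse 2 labelled off were again the highest of their organ, at 1658 and 343 CPM, and the other 9 were between 13.5 and 126 CPM.

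*Timp3* fell in the lungs against the pancreas with a log2 fold change of -4.13 ± 0.81 in libraries labelled off (adjusted p = 0.00114) and -5.05 ± 0.54 in those labelled on (adjusted p = 1.4e-05). In the liver, the value was -4.21 ± 0.51 among libraries labelled on (adjusted p = 1.21e-05). Among those labelled off it was -1.70 ± 0.91 (adjusted p = 0.212), -3.34 ± 0.82 without the paired-end library (adjusted p = 0.00671) and -4.70 ± 0.74 without both of mouse 2 (adjusted p = 0.000299). Fibroblast markers moved with both genes across organs, and their part in these differences was not tested. Within the liver, the library with 2014 CPM of fibroblast markers held 18.9 CPM of *Mmp2* and 94.7 CPM of *Timp3*. The one with 2395 CPM held 149 and 343 CPM.

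**Figure D3:**
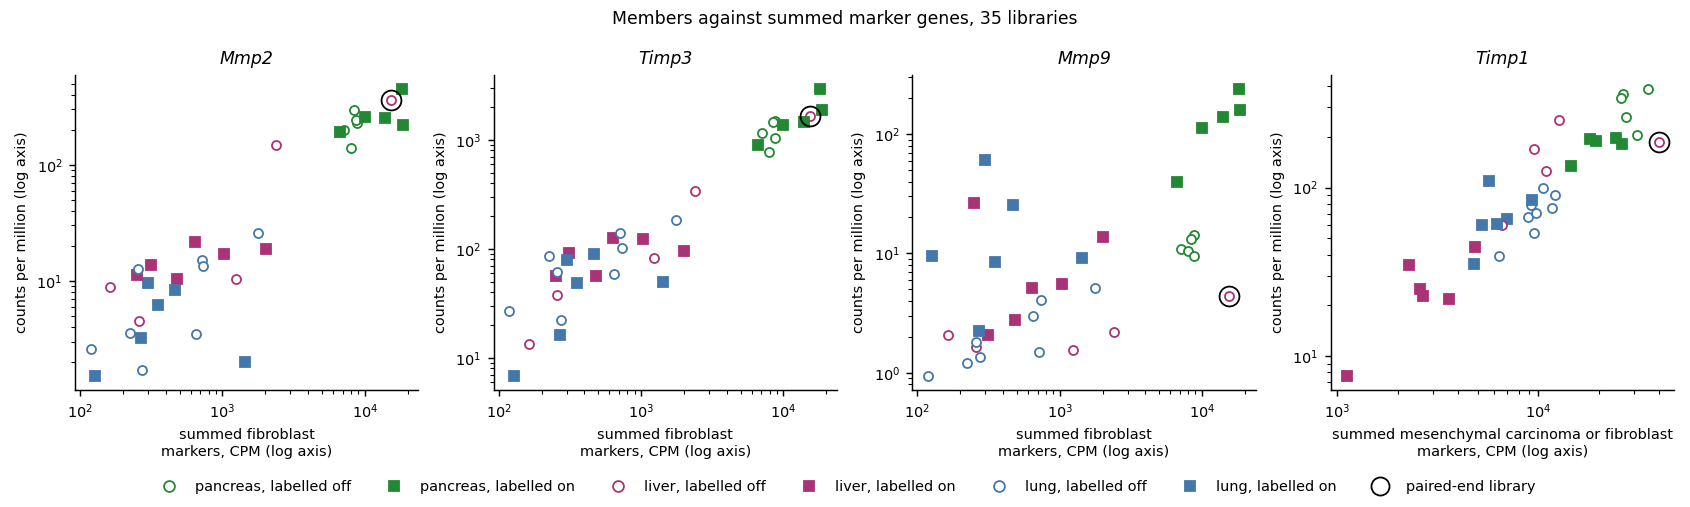
CPM of *Mmp2*, *Timp3*, *Mmp9* and *Timp1* (y axes, log scale) against the summed CPM of 10 fibroblast markers or, for *Timp1*, of 6 mesenchymal genes (x axes, log scale) in the 35 libraries, colored by organ, with the paired-end library ringed. *Mmp2* and *Timp3* lie along the fibroblast markers, with the ringed liver library among the pancreas libraries. The part of fibroblasts in the *Mmp9* values was not tested.

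*Mmp7* ran the other way. It was at 3.71 to 20.9 CPM in the pancreas (median 8.64), 5.27 to 234 CPM in the liver (median 69.9) and 14.0 to 143 CPM in the lungs (median 73.1). The lowest liver library was the paired-end one at 5.27 CPM, and the next was the other library of its group at 12.6 CPM. *Mmp7* rose in the liver against the pancreas by 2.59 ± 0.59 on the log2 scale among libraries labelled off (adjusted p = 0.0107) and by 3.24 ± 0.49 among those labelled on (adjusted p = 7.7e-05). In the lungs it rose by 3.33 ± 0.55 (adjusted p = 0.000342) and 2.52 ± 0.47 (adjusted p = 0.00117). Several marker sums moved with *Mmp7* over the 35 libraries, which share organs: Spearman's rho was 0.78 with hepatocyte markers, 0.64 with the carcinoma epithelium, 0.59 with macrophage and 0.56 with neutrophil markers. The part of these cells was not tested.

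The other cluster genes on chromosome 9 did not follow *Mmp7*. *Mmp3* was low throughout, at 1.36 to 14.0 CPM in the pancreas (median 4.92), 0.0987 to 13.7 CPM in the liver (median 0.387) and 0.938 to 6.15 CPM in the lungs (median 2.58). Of the 6 liver libraries labelled on, 5 were at 0.34 CPM or less and the sixth was at 1.40 CPM. Among libraries labelled on, *Mmp3* fell by 4.21 ± 0.54 in the liver (adjusted p = 1.78e-05) and by 2.22 ± 0.50 in the lungs (adjusted p = 0.00399) against the pancreas, and was lower in the liver than in the lungs by 1.99 ± 0.51 (adjusted p = 0.0118). Among libraries labelled off, its values were 0.17 and -0.27 (adjusted p = 0.91 and 0.791), and the liver value was 0.02 without the paired-end library (adjusted p = 0.993) and -2.38 ± 0.62 without both of mouse 2 (adjusted p = 0.00984).

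*Mmp13* was the 1 member called in no comparison. It ranged from 3.36 to 33.2 CPM in the pancreas (median 12.5), from 3.82 to 66.2 CPM in the liver (median 15.9) and from 6.55 to 156 CPM in the lungs (median 26.1). Its spread within groups was wide, as in the 4 lung libraries labelled off on day 7, at 36.7, 34.1, 23.4 and 156 CPM. The values against the pancreas were 0.17 to 1.35 (adjusted p = 0.159 to 0.849).

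*Mmp9*, gelatinase B, shares substrates with gelatinase A. It was at 9.56 to 239 CPM in the pancreas (median 26.9), 1.54 to 26.6 CPM in the liver (median 2.79) and 0.944 to 60.9 CPM in the lungs (median 3.54). It fell against the pancreas in every one of the 4 comparisons, by 2.23 ± 0.40 (liver, adjusted p = 0.00415) and 2.46 ± 0.35 (lungs, adjusted p = 0.000101) among libraries labelled off, and by 3.73 ± 0.80 (adjusted p = 0.0015) and 2.89 ± 0.76 (adjusted p = 0.0107) among those labelled on. Leaving out single libraries, the liver values labelled off were between -2.53 and -2.01 and stayed called.

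*Mmp14* encodes the membrane-anchored protease that activates pro-MMP2, and *Mmp11* encodes stromelysin 3, which is activated inside the cell. *Mmp14* was at 617 to 1024 CPM in the pancreas (median 865), 244 to 979 CPM in the liver (median 361) and 294 to 554 CPM in the lungs (median 442). It fell in both organs among libraries labelled on (-1.51 ± 0.16 and -1.17 ± 0.16, adjusted p = 3.27e-06 and 7.58e-05). Among libraries labelled off it fell in the lungs by 1.07 ± 0.20 (adjusted p = 0.000755). This value fell under 2-fold in 5 of 18 fits without a single library, the smallest being -0.92. In the liver labelled off, *Mmp14* was at -0.67 ± 0.22 (adjusted p = 0.0541). Without the paired-end library it was at -1.03 ± 0.13 and was called (adjusted p = 3.56e-05). *Mmp11* was at 32.3 to 51.7 CPM in the pancreas, 5.74 to 23.2 CPM in the liver and 5.86 to 31.9 CPM in the lungs, so that no metastasis reached the pancreas. It was called lower in the liver in both labels (-1.41 ± 0.25 and -2.16 ± 0.25, adjusted p = 0.00343 and 8.97e-06) and in the lungs in libraries labelled on (-1.32 ± 0.25, adjusted p = 0.0013).

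Soluble *Timp1* and *Timp2* were lower in metastases by less than *Timp3*. *Timp1* was at 135 to 387 CPM in the pancreas (median 202), 7.63 to 253 CPM in the liver (median 44.2) and 35.4 to 110 CPM in the lungs (median 68.9). It fell in the lungs in both labels (-2.26 ± 0.29 and -1.35 ± 0.34, adjusted p = 4.6e-05 and 0.00758) and in the liver among libraries labelled on (-2.75 ± 0.35, adjusted p = 1.68e-05). In the liver labelled off, the value was -0.95 ± 0.32 (adjusted p = 0.0572). Without the paired-end library it was -1.05 ± 0.35 and was called (adjusted p = 0.0371). Between liver and lungs, *Timp1* was higher in the liver by 1.32 ± 0.28 among libraries labelled off (adjusted p = 0.0115). It was lower there by 1.41 ± 0.33 among those labelled on (adjusted p = 0.00714). With mouse number as a block, the value labelled off was 1.05 ± 0.32 and was not called (adjusted p = 0.102). The test of whether the label difference itself differs between these organs is given below, by day.

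*Timp2* was the most even of the 3 inhibitors, at 1042 to 1488 CPM in the pancreas, 319 to 1357 CPM in the liver and 591 to 1320 CPM in the lungs. It was called lower in the liver than in the pancreas among libraries labelled on (-1.60 ± 0.14, adjusted p = 1.06e-06). In the lungs its values of -0.57 ± 0.19 and -0.76 ± 0.14 passed the adjusted p (0.0262 and 0.00115) at less than 2-fold. Between liver and lungs, 2 members were called among libraries labelled off (*Mmp2* and *Timp1*, against 3.95% of all genes) and 3 among those labelled on (*Mmp2*, higher in the liver by 1.59 ± 0.37 with an adjusted p of 0.00671, and *Mmp3* and *Timp1*, lower, against 10.3%). In a single fit of all 12 groups, *Mmp2* and *Mmp3* lost these calls among libraries labelled on (adjusted p = 0.142 and 0.0532).

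**Figure D4:**
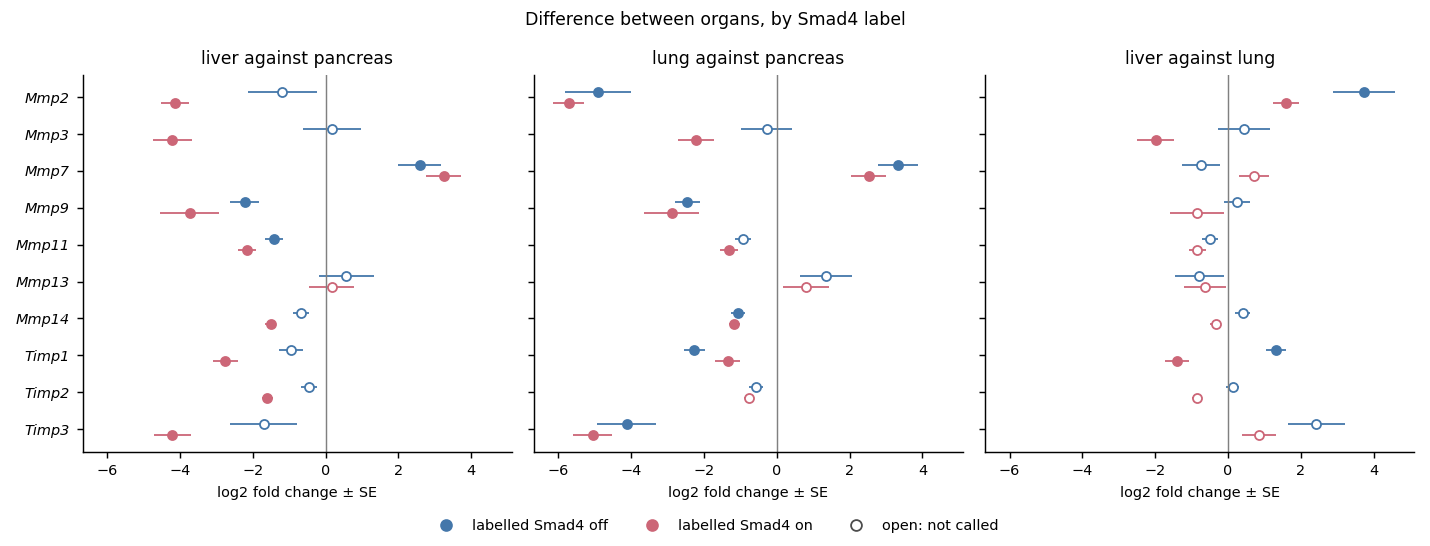
Log2 fold changes with SE (x axes) of the 10 genes (y axis) for liver against pancreas, lung against pancreas and liver against lung, in libraries labelled Smad4 off (blue) and on (red), with filled points for calls. *Mmp7* is the 1 gene called higher than in the pancreas, and for *Timp1* the 2 labels lie on opposite sides of 0 between liver and lungs.

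The second question was how the genes differ between labels within each organ and day. *Mmp9* had a positive log2 fold change in all 6 strata of organ and day. In the fit of all libraries described at the end of these comparisons, 8 of the 10 members had negative values, as did 47.5% of all genes, and 6 of the 10 without both liver libraries of mouse 2 (46.0% of all genes). Within single strata, however, 1 call was made: *Mmp9* in the pancreas on day 7 (1 of 10 members, against 1.33% of all genes).

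In the pancreas on day 7, *Mmp9* was at 14.1, 10.9 and 10.4 CPM in the libraries labelled off and at 239 and 160 CPM in those labelled on. The groups did not overlap, as for 23.0% of genes in this direction, and *Mmp9* rose by 4.06 ± 0.22 on the log2 scale (adjusted p = 0.00325). Fibroblast markers were also higher in the libraries labelled on, at 18208 and 18535 CPM against 7100 to 8792 CPM. Neutrophil markers were higher as well, at 7.89 and 14.9 CPM against 1.95 to 4.83 CPM. Macrophage markers overlapped (185 and 231 against 165 to 248 CPM). Acinar (492 and 740 against 1221 to 2334 CPM), mesenchymal and leukocyte genes were lower without overlap. The part of these cells in the *Mmp9* rise was not tested. *Timp3* was at 1041, 1147 and 770 CPM in the libraries labelled off and 2936 and 1883 CPM in those labelled on. This difference of 1.27 ± 0.25 was not called with edgeR (adjusted p = 0.0602) and was called with DESeq2 (adjusted p = 3.6e-05). DESeq2 called 517 of 14439 genes in this stratum. With mouse number as a block, *Mmp9* was not called at this stratum (3.96 ± 0.16, adjusted p = 0.0598).

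On day 14 in the pancreas, *Mmp9* was at 9.56 and 13.1 CPM in the libraries labelled off and at 39.6, 112 and 138 CPM in those labelled on. These groups did not overlap, as for 34.4% of genes in this direction, and the difference of 2.99 ± 0.68 missed the threshold with edgeR (adjusted p = 0.071) and passed it with DESeq2 (adjusted p = 0.000124). Fibroblast markers overlapped between these groups, at 8754 and 8425 CPM against 6651, 9999 and 13936 CPM. Macrophage markers did not overlap and were higher in the libraries labelled on, at 192 and 315 CPM against 339, 375 and 390 CPM, and their part was not tested. No member was called by both criteria, against 4.64% of all genes, and 4 members passed the adjusted p at less than 2-fold, all lower in the libraries labelled on, where 6.30% of all genes passed the adjusted p in that direction. These were *Timp1* (-0.89 ± 0.19, adjusted p = 0.0292), *Mmp14* (-0.56 ± 0.11, 0.0169), *Mmp11* (-0.43 ± 0.11, 0.041) and *Timp2* (-0.36 ± 0.09, 0.0396). Mesenchymal genes were also lower without overlap in the libraries labelled on (14605 to 19494 CPM against 25827 and 27262 CPM), and genes of the carcinoma epithelium higher (5993 to 8311 CPM against 4681 and 4443 CPM). Their part was not tested.

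In the lungs on day 7, *Mmp9* was at 5.11, 1.49, 4.10 and 1.37 CPM in the libraries labelled off and at 60.9 and 9.49 CPM in those labelled on. On day 14 it was at 1.82, 1.20, 0.944 and 2.99 CPM against 25.2, 8.55, 2.24 and 9.13 CPM, with 1 library labelled on inside the range of the others. The differences of 3.60 ± 0.73 and 2.63 ± 0.69 were not called (adjusted p = 0.562 and 0.251), in strata where 0.0% and 0.0271% of all genes were. edgeR called 0 members in either stratum. DESeq2 called *Mmp9* in both (adjusted p = 0.000446 and 0.00399), where it called 102 of 15193 and 197 of 14751 genes. With mouse number as a block, the day 14 value was 2.32 ± 0.45 (adjusted p = 0.0582), and 109 genes were called in place of 4. On that day, macrophage markers were higher in all lung libraries labelled on (402 to 795 CPM) than in those labelled off (226 to 384 CPM), and their part in the *Mmp9* values was not tested. At an unadjusted p under 0.05, 793 and 1485 genes stood out on day 7 and day 14.

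In the liver on day 14, *Mmp9* was at 2.08, 2.18 and 1.54 CPM in the libraries labelled off and at 26.6, 2.79 and 13.6 CPM in those labelled on. These groups did not overlap, as for 9.52% of genes in this direction (2.81 ± 0.76, adjusted p = 0.37). Macrophage markers separated in the same way, at 158, 243 and 219 CPM against 538, 261 and 451 CPM, and neutrophil markers were at 258 CPM in the library with the most *Mmp9*. Their part was not tested. On day 7, its groups overlapped, at 1.63 and 4.36 CPM against 5.11, 5.50 and 2.08 CPM (0.28 ± 0.68, adjusted p = 0.839). All libraries labelled on thus lay above all labelled off in 4 of 6 strata for *Mmp9*, as for 3.67% of genes with a mean of at least 1 CPM. DESeq2 called *Mmp9* in 5 of the 6 strata.

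*Timp1* moved the opposite way in the liver. On day 7 it was at 169 and 188 CPM in the libraries labelled off and at 24.9, 22.5 and 7.63 CPM in those labelled on. On day 14 it was at 253, 125 and 59.6 CPM against 34.9, 44.2 and 21.8 CPM. All libraries labelled on were below all labelled off on both days, in the liver as in the pancreas (on day 7, 206, 361 and 387 against 181 and 198 CPM, and on day 14, 339 and 262 against 135, 196 and 189 CPM). Of genes with a mean of at least 1 CPM, 17.1% and 6.04% did so in the liver on day 7 and day 14. In the pancreas, 20.9% and 15.8% did.

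The liver differences of -3.46 ± 0.51 (day 7, adjusted p = 0.0562) and -2.23 ± 0.58 (day 14, adjusted p = 0.357) were not called with edgeR. They were called with DESeq2 (adjusted p = 1.52e-08 and 0.00459), which called 2842 of 16007 and 332 of 14947 genes in these strata. In the lungs the groups overlapped on both days, with 90.1, 75.2, 66.9 and 39.5 against 65.5 and 110 CPM on day 7 and 70.9, 99.1, 79.3 and 54.1 against 59.8, 60.8, 35.4 and 84.5 CPM on day 14. Mesenchymal genes (*Vim*, *Fn1*, *Sparc*, *Col1a1*, *Col1a2* and *Zeb1*) moved with *Timp1* in the liver, summing to 6573 to 39885 CPM in the 5 libraries labelled off and 1111 to 4845 CPM in the 6 labelled on. Their part in the *Timp1* difference was not tested.

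*Timp2* and *Mmp14* shared this pattern at smaller size. In the liver on day 7, *Timp2* was at 795 and 1357 CPM in the libraries labelled off and at 353, 368 and 319 CPM in those labelled on, and on day 14 at 1055, 804 and 590 CPM against 357, 548 and 368 CPM. *Mmp14* was at 472 and 979 CPM against 244, 250 and 269 CPM on day 7, and at 446, 477 and 411 CPM against 270, 361 and 285 CPM on day 14. All libraries labelled on were below all labelled off in 4 of 6 strata for *Timp1* and for *Timp2* and in 3 for *Mmp14*, where 2.27% of genes had at least 4 such strata and 6.65% at least 3.

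On day 7 in the liver, 5 members (*Mmp3*, *Mmp11*, *Mmp14*, *Timp1* and *Timp2*) were lower without overlap, as were 17.1% of genes, and *Mmp7* was higher without overlap, as were 27.9%. *Mmp7* was at 12.6 and 5.27 CPM in the libraries labelled off and 60.8, 53.0 and 61.9 CPM in those labelled on. Hepatocyte markers were higher too, at 58.4, 76.7 and 134 CPM against 17.5 and 1.51 CPM. So were genes of the carcinoma epithelium (16281 to 17242 against 3465 and 12640 CPM) and macrophage markers (263 to 289 against 68.8 and 146 CPM). Mesenchymal genes (1111 to 2670 against 9558 and 39885 CPM) and leukocyte genes (7.64 to 10.8 against 13.7 and 14.8 CPM) were lower without overlap. The part of these cells was not tested. None of the 10 was called with edgeR in this stratum, in which 0.444% of all genes were, and DESeq2 called 8, of which 7 were lower, and 17.8% of all genes. In the liver on day 14, edgeR called 0 of the 10 and 0.0% of all genes (1447 genes had an unadjusted p under 0.05). DESeq2 called *Mmp9* and *Timp1* there, among 332 of 14947 genes.

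The day 7 liver values of *Mmp2* and *Timp3* rested on the paired-end library. With it, their log2 fold changes were -3.65 ± 1.51 and -3.17 ± 1.35 (adjusted p = 0.2 and 0.211). Without it, they were 1.87 ± 0.36 (adjusted p = 0.0555) and 1.53 ± 0.25 (adjusted p = 0.0406), with 1 library left in the group labelled off, which is then assumed to vary like the others. *Timp1* (-3.27 ± 0.56, adjusted p = 0.0457), *Timp2* (-1.26 ± 0.20, adjusted p = 0.0379) and *Mmp7* (2.16 ± 0.22, adjusted p = 0.0275) kept their directions without it and were then called.

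A fit of all 35 libraries with the 6 strata as terms, added after the values were seen, called *Mmp9* higher (2.80 ± 0.37, adjusted p = 6e-06) and *Timp1* lower (-1.08 ± 0.29, adjusted p = 0.00817) in the libraries labelled on, 2 of 10 members against 4.84% of all genes. *Timp2* (-0.63 ± 0.13, adjusted p = 0.00139), *Mmp14* (-0.54 ± 0.12, adjusted p = 0.00264) and *Mmp11* (-0.52 ± 0.15, adjusted p = 0.0126) were lower at less than 2-fold, where 9.64% of all genes passed the adjusted p in that direction. The median over the 10 members was -0.58, beside 0.01 over all genes tested. Without the 2 liver libraries of mouse 2, *Mmp9* stood at 3.02 ± 0.34 (adjusted p = 1.19e-06), and *Timp1* fell just short of 2-fold (-0.99 ± 0.27, adjusted p = 0.0149). *Mmp2* and *Timp3* moved from -1.05 and -0.76 to 0.08 and 0.10, with no call in either fit.

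**Figure D5:**
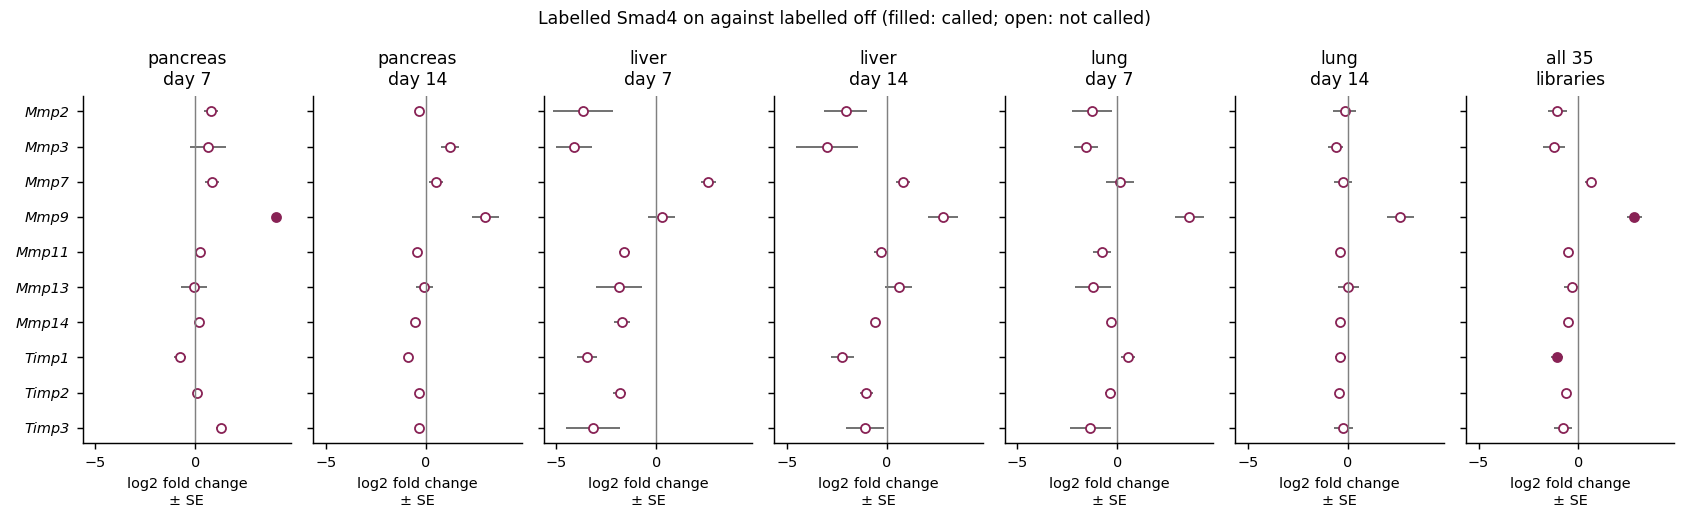
Log2 fold changes with SE (x axes), labelled Smad4 on against labelled off, of the 10 genes (y axis) in each organ and day and in the fit of all 35 libraries, with filled points for calls. *Mmp9* lies to the right of 0 in all panels and is called in the pancreas on day 7 and in the fit of all libraries, and *Timp1* is called lower in the latter.

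The third question was whether the label difference itself differs between liver and lungs, tested as the interaction of organ and label. On day 7, *Timp1* was the 1 member called (1 of 10, against 1.86% of all genes), with a difference in label effect of -3.93 ± 0.61 (adjusted p = 0.0372), from label effects of -3.46 (liver) and 0.53 (lungs). The call was lost in 8 of 11 fits without a single library, where the value stayed between -4.37 and -3.36. On day 14, 0 of the 10 and 0.0% of all genes were called (478 genes had an unadjusted p under 0.05, and DESeq2 called 4), and the value for *Timp1* was -1.84 ± 0.62 (adjusted p = 1).

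The wider family was read from 4 lists. Of 16 other metalloproteinases, 7 to 10 passed the filter in each comparison, and *Mmp15*, a membrane-type enzyme, was the one most like *Mmp7*, at 18.3 to 44.8 CPM in the pancreas and 136 to 204 CPM in the liver libraries labelled on. *Mmp15* was higher than in the pancreas by 2.35 in the liver (labelled on, adjusted p = 1.6e-05) and by 1.45 and 1.53 in the lungs (labelled off and on, adjusted p = 0.0041 and 0.00099). *Mmp12*, macrophage elastase, and *Mmp24* were also called higher in the lungs in both labels, and *Mmp8* in the liver (labelled on, at 1.71 CPM or less). *Mmp19* was called lower in the lungs in both labels and in the liver among libraries labelled on, where *Mmp16* was lower too.

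Among 7 other inhibitors, of which 3 to 5 passed the filter, *Reck*, a membrane-anchored inhibitor, fell in the lungs (-3.44 and -3.82, adjusted p = 0.0012 and 0.00016) and in the liver labelled on (-1.76, adjusted p = 0.011). *A2m*, a plasma protease inhibitor, fell in all 4 comparisons with the pancreas, between -4.47 and -1.46. *Spock2* was called lower in the liver in both labels, and *Spock3* higher in the lungs labelled off.

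All 18 ADAM and ADAMTS proteases passed the filter, and they gave the most calls. Against the pancreas, 4 were lower in the liver labelled off, and 11 were lower in each of the 3 other comparisons, with 0, 1, 2 and 1 higher. Over all genes, 3.43%, 7.58%, 11.4% and 7.13% were called lower (liver and lungs labelled off, liver and lungs labelled on). The 4 calls in the liver labelled off were lost in 15 (*Adamts4*), 10 (*Adamts14*) and 5 (*Adamts7* and *Adamts10*) of 18 fits without a single library. Their medians were -1.12, -1.38, -2.88 and -1.56 (liver and lungs labelled off, liver and lungs labelled on), beside -0.01 to 0.04 over all genes. *Adam19* was at 26.9 to 126 CPM in the pancreas and at most 4.69 CPM in the lungs, and *Adamts15* ran the other way, being called higher in both lung comparisons and in the liver labelled on. *Adam8* was called higher in the liver among libraries labelled on.

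Of 10 activators and partners, 8 or 9 passed the filter, and *Furin*, *Pcsk7*, *Bsg*, *Cd44* and *Ctsb* were called in none of the 15 comparisons. *Klk1*, tissue kallikrein, had a median of 27.0 CPM and a highest value of 67.8 CPM in the pancreas and at most 2.43 CPM elsewhere, the highest of these being a liver library labelled off. *Ctsl* was called lower in the lungs labelled off and in the liver labelled on, *Pcsk6* higher in the lungs labelled off, and *Pcsk5* higher in the liver labelled on.

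Between labels, the lists gave few calls within strata. *Mmp15* was higher in the liver on day 7 (2.89, adjusted p = 0.048). In the pancreas on day 14, *Mmp10*, *Spock2*, *Adamts7*, *Adamts12* and *Adamts14* were lower and *Spock3* and *Pcsk6* higher in the libraries labelled on. In the fit of all 35 libraries, *Adam12* (-1.80), *Adamts12* (-1.68), *Mmp24* (-1.56), *Adamts6* (-1.50), *Adamts14* (-1.43) and *Adamts7* (-1.06) were called lower and *Spock3* higher (1.05), with adjusted p from 2.2e-05 to 0.0121. Between liver and lungs, *Adam19*, *Adamts2* and *Adamts14* were higher in the liver among libraries labelled off. Among those labelled on, *Reck*, *Adam8*, *Adamts5* and *Pcsk5* were higher and *Mmp12*, *Mmp19*, *Mmp24*, *A2m*, *Spock2*, *Adam12* and *Adamts7* lower. The interaction on day 7 called *Adamts15* and *Pcsk5* higher and *Mmp10* and *Adamts7* lower, calls that were lost in 8 (*Adamts15*) or 9 (the others) of 11 fits without a single library.

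The genes most like each member were found by Spearman's rho of log2 CPM over the 35 libraries, among 13543 genes, and these values are a description in which the organs, and so the mix of cells, are shared. *Mmp2* lay closest to *Aspn* (0.96), *Bgn* (0.95) and *Timp3* (0.94), and *Timp3* to *Pdgfrb* (0.94), *Mmp2* (0.94) and *Sertad4* (0.94). *Mmp3* lay closest to *Col6a1* (0.78), *Moxd1* (0.78) and *Fbln1* (0.77). *Timp1* lay closest to *Plod2* (0.96), *Msn* (0.94) and *Fermt2* (0.94), *Timp2* to *Zeb1* (0.96), *Jcad* (0.95) and *Fn1* (0.95), and *Mmp14* to *Nav1* (0.96), *Sgcb* (0.95) and *Chsy1* (0.95).

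*Mmp11* lay closest to *Tmem44* (0.96), *Rbfox2* (0.95) and *Arsa* (0.94). For *Mmp9* the closest were *9530082P21Rik* (0.80), *Aif1* (0.78), a macrophage gene, and *Sfrp2* (0.78), a secreted Wnt antagonist. *Mmp7* lay closest to *Ky* (0.87), *Ccdc33* (0.86) and *Sult1a1* (0.86), and *Mmp13* to the paired receptor genes *Pilrb1* (0.75), *Pilrb2* (0.72) and *Pilra* (0.71). Among the members themselves, *Mmp11* and *Mmp14* had a rho of 0.89 and *Mmp2* and *Timp3* of 0.94, while *Mmp7* was negative with *Timp1* (-0.68) and *Mmp14* (-0.66). The 3 cluster genes had values of 0.36 (*Mmp7* and *Mmp13*), 0.12 (*Mmp3* and *Mmp13*) and -0.34 (*Mmp3* and *Mmp7*).

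Some genes overlap others on the genome. *Mmp11* shares sequence with *Chchd10* on the opposite strand (16312 and 10718 counts over all libraries), *Timp1* lies within *Syn1* (96257 and 6516 counts) and *Timp3* within *Syn3* (358474 and 944 counts), also on opposite strands, and *Timp2* overlaps *Cep295nl* on its own strand (656971 and 1617 counts). The kit marks strand, but the strand setting of the counting is not given in the sources used here, so reads of such partners cannot be told apart.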

How the data were processed

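PolyA-selected RNA of sorted mKate2+ cells was sequenced in 35 libraries. The deposited table holds whole-number read counts per gene, which the authors made from 75-bp reads (34 libraries labelled single-end and 1 paired-end). The submitters' processing notes name FastQC 0.11.5, Trimmomatic 0.36, STAR 2.5.3a, featureCounts 1.6.3 and GRCm38, and the strand setting is not given in the sources used here. No column was left out. The genotype of the donor tumors is not reported here in full.

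Counts were tested as deposited with edgeR 4.0.16 (TMM scaling, filterByExpr with a count minimum of 10, quasi-likelihood test, R 4.3.3), on the libraries of each comparison, and adjusted over all genes tested. The SE given with edgeR's log2 values is derived from its test. It is the absolute log2 value divided by the square root of the F statistic. CPM values are counts per 1000000 counts of the library total, and CPM per kb divides them by exon length. Organs were compared within each label with day as a covariate. The fit of all 35 libraries was added after the values were seen. Alternatives were DESeq2 1.42.0, its size factors in edgeR, no filter on low counts, a single fit of 12 groups, mouse number as a block, a covariate for libraries with mt-Co3 counts, and leaving out each library. The scripts were tested on simulated data.

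Mouse numbers are shared between labels and between days. A host was either kept on Dox or taken off it, and its cells were sorted on a single day. Libraries with the same number thus came from different mice. In the lungs on day 14, all 4 same-numbered libraries deviated together (correlations of 0.485, 0.547, 0.637 and 0.568). A library of another number correlated more highly for 3 of the 4 (0.640, 0.673 and 0.638). There, libraries numbered 3 and 4 of both labels held 291 to 570 mt-Co3 counts, and those numbered 1 and 2 held 0. A shared number is therefore not read as a pair. The values given first are without the block, which changed no member call in the lungs on day 14.

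The members, marker lists and gene lists (other metalloproteinases, other inhibitors, ADAM and ADAMTS proteases, activators and partners) were chosen with earlier results of these data known. All 10 members were named, with list genes named where called. Likeness used log2 of CPM plus 0.5 over genes with a mean of at least 1 CPM.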

Additional observations from a re-analysis of the deposited data

Results flagged for a closer look

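Among 30 groups of 4 libraries tested for a value far from the others (Dixon's critical value 0.829), 2 stood out, and chance marks about 1 in 20. *Mmp2* was at 12.57 CPM in 1 lung library labelled off on day 14, against 2.60 to 3.53 CPM in the other 3. *Mmp13* was at 156 CPM in 1 lung library labelled off on day 7, against 23.4 to 36.7 CPM in the other 3.

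The label difference of *Timp1* differed between liver and lungs on day 7 by -3.93 on the log2 scale in edgeR's interaction test (adjusted p = 0.0372). For *Mmp14* on day 7, every library labelled on lay above every library labelled off in the pancreas (log2 fold change 0.20) and below in the liver (-1.71), as for 23.0% and 17.1% of genes in these directions. This difference between organs was not tested.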

How the results depend on the processing

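Of the members' called values recomputed under alternatives, 789 kept direction and call, 28 lost the call and 1 reversed (with the list genes, 2984, 217 and 1): *Mmp2* between liver and lungs (labelled off) was -0.0401 without both liver libraries of mouse 2. Levels and DESeq2 size factors changed no result. Counts of calls moved as follows, and the cause was not tested.

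With DESeq2, members called between labels were 2, 8 and 1 (pancreas, liver and lungs, day 7) and 2, 2 and 1 (day 14), and 4 for the day 7 interaction, with 517, 2842 and 102 genes on day 7, 332 and 197 (liver and lungs, day 14), 1026 between liver and lungs labelled off, and 1879 and 4 for the interactions. In the single fit, members numbered 8 and 1 (liver, day 7 and 14), 1 (liver against lungs, labelled on) and 3 (interaction, day 7), and genes 42, 3097 and 16 on day 7, 16, 254 and 14 on day 14 and 2037 for the interaction. With no filter, members numbered 2, 6 (pancreas and liver, day 7), 1 (pancreas, day 14) and 1 (liver against lungs, labelled off), and genes 549, 977 and 13 on day 7, 7 and 23 (liver and lungs, day 14) and 462 (interaction).

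With the replicate block, where numbers other than those of the day 14 lungs are only shared, members numbered 0 and 1 (pancreas, day 7 and 14), 0 (liver against lungs, labelled off) and 0 (interaction, day 7), and genes 0, 0 and 4 on day 7, 109 in the lungs on day 14, 853 (liver against pancreas) and 368 (liver against lungs) labelled off, 994 (liver against lungs, labelled on) and 0 (interaction). With the mt-Co3 covariate, possible only without the pancreas, 2 members were called in the liver on day 7, and genes numbered 1022 and 4 (liver and lungs, day 7), 127 (lungs, day 14) and 775 (interaction). Without both liver libraries of mouse 2, 7 members and 2751 genes were called between liver and pancreas labelled off, and 1 member in the fit of all libraries.

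Leaving out single libraries, members called ranged from 1 to 2 (pancreas, day 7), 0 to 8 (liver, day 7), 0 to 1 (pancreas, day 14), 3 to 6 (liver against pancreas) and 1 to 3 (liver against lungs) labelled off, 0 to 3 (interaction, day 7) and 1 to 2 (all libraries). Genes ranged from 23 to 162, 0 to 3373 and 0 to 28 on day 7 (pancreas, liver and lungs), 212 to 992, 0 to 2 and 2 to 7 on day 14, 695 to 2696 (liver against pancreas, labelled off) and 0 to 2271 (interaction). Groups of 2 to 4 libraries limit single strata, and *Mmp3* lies near the smallest detectable level in the liver. The single fit could not be applied to the fit of all libraries.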
